A study of Mus musculus with 48 samples.

Results

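The 10 genes described here mark the alveolar type I cell, the thin, flat epithelial cell through which the lung exchanges gas. They are Aqp5, Clic5, Hopx, Ager, Akap5, Emp2, Pdpn, Vegfa, Cav1 and Rtkn2, and they were taken by symbol from the platform annotation, out of 20738 named genes on the array. They were measured in 2 kinds of cultured cell from C57Bl/6J mice, type II cells of the alveolar epithelium (AECII) and smooth muscle cells of the pulmonary artery (PASMC), on 48 single-colour Agilent arrays in 6 groups of 8. In each cell type the groups are cells given e-cigarette vapour extract whose liquid held 18 mg/ml nicotine, cells given extract whose liquid held 0 mg/ml, and control cells, whose exposure the labels call room air. The extract was given at 15% for 24 h, to AECII in 10% serum the day after their isolation and to PASMC in 15% serum at passage 1. The series states that cells came from 8 mice without tying arrays to mice, so arrays were treated as independent and p-values measure the spread between them.

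Type I cells cover most of the alveolar surface, lie on a shared basement membrane with capillaries and arise from type II cells, which make surfactant and divide to replace them. Type II cells placed in culture on plastic or in serum are known to lose surfactant genes and to gain type I genes over days. Few type I markers belong to that cell alone: podoplanin is also made by fibroblasts, mesothelium and lymphatic endothelium, and caveolin by muscle and endothelium. In bulk RNA, a lower value can come from fewer cells of a type or from less RNA per cell, and these cannot be told apart.

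Of the 10 markers, 9 of which have a promoter in the RefSeq table for mouse build GRCm38.p6 (Rtkn2 has no entry), 4 are shown from 250 bases before to 50 bases after the start of transcription. Hopx, Clic5 and Ager are shown because their levels followed each other from array to array, and Pdpn because it ran the other way between the cell types. Capitals mark CACTTG, the core that the lung transcription factor NKX2-1 recognises. Both strands were searched for it and for CATTCC, the core of the TEAD factors that act with YAP.
Hopx, chr5:77095218-77095517, minus strand: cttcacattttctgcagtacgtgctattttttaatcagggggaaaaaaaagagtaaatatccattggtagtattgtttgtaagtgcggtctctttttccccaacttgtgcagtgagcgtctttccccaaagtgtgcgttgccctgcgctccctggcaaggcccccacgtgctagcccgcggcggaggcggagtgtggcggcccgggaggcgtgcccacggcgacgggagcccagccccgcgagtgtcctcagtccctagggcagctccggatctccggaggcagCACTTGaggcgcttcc
Clic5, chr17:44188322-44188621, plus strand: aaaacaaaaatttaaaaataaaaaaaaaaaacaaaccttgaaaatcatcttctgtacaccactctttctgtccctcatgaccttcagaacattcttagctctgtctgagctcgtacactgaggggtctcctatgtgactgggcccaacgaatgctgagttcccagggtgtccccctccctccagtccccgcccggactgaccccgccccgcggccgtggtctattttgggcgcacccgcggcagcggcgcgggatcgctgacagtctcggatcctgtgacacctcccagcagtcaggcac
Ager, chr17:34597600-34597899, plus strand: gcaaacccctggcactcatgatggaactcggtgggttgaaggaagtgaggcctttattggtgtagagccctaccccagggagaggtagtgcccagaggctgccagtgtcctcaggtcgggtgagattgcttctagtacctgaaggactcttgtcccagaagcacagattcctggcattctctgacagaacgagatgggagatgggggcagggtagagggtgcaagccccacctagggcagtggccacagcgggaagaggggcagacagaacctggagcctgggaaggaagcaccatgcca
Pdpn, chr4:143299515-143299814, minus strand: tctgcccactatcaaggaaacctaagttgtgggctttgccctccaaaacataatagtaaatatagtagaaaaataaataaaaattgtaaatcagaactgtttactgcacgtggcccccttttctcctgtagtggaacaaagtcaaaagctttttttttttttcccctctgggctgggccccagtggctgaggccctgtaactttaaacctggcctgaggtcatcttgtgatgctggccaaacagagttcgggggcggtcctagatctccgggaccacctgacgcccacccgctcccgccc
CACTTG was found in 1 of the 12 windows of the 9 genes, that of Hopx shown above, just after the start. It occurs in 13.6% of all 32817 promoter windows. CATTCC was found in none of the 12 and occurs in 14.7% of all windows. These are matches of letters and not measured sites, and nothing about either factor follows from them.

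Values are the deposited log2 signals, on which a step of 1 is a doubling of signal and which every array shares in distribution, with a median of 2.98 and an upper quartile of 5.78. The table carries no call of detection, so a value near the median may be background, and a difference against such a value may understate the true one. The cultures carried the markers of their labels and of other cells. The surfactant gene Sftpc lay between 13.80 and 14.86 in the 24 AECII arrays, but it was also above 6 in 4 of 8 PASMC arrays with 18 mg extract, 4 of 8 with 0 mg extract and 3 of 8 control PASMC arrays. Of the 8 type II markers, 7 lay above the upper quartile in AECII, yet not all set AECII apart: the phosphate transporter Slc34a2 was under the array median (group means 2.23 to 2.63), Etv5 was at 7.47 to 7.57 in AECII against 9.73 to 10.06 in PASMC, and Lamp3 at 10.91 to 10.95 against 10.60 to 10.65. The muscle actin Acta2 lay between 10.93 and 12.83 in AECII and between 14.33 and 15.46 in PASMC, whereas the more restricted muscle myosin Myh11 stayed at or below 4.33 in AECII. AECII also held the mesothelial gene Msln (13.92 to 14.55) and the club cell gene Scgb1a1 (15.59 to 15.89). All 4 mesothelial markers lay above the upper quartile there, but of the other club cell genes Scgb3a2 was under the array median (group means 2.12 to 2.19) and Cyp2f2 only just above the upper quartile (5.93 to 5.98). PASMC held the fibroblast markers Dcn (group means 13.29 to 13.42), Col1a1 (13.38 to 13.40) and Pdgfra (9.94 to 10.05). Tcf21 was dimmer (5.25 to 5.65), and all of these had lower group means in AECII. The macrophage gene Marco was at 9.82 to 9.90 in PASMC against 7.32 to 7.60 in AECII. The macrophage marker Lyz2 went the other way, at 8.76 to 8.79 against 10.00 to 10.03. The part of these cells in the results below was not tested, apart from refits without the PASMC arrays of Sftpc above 6.

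The first comparison asks how the type I markers differ between the cell types. The 6 surface, anchoring and regulatory markers were higher in AECII, Aqp5, Clic5, Hopx, Ager and Akap5 by 5.97 to 7.70 on the log2 scale and Emp2 by 1.71, while Pdpn and Vegfa were lower in AECII. Cav1 and Rtkn2 did not pass the test. In control cells this makes 8 of 10 members called at an adjusted p under 0.05, 6 higher and 2 lower. The same test called 59.2% of all 14775 genes tested, 27.9% higher and 31.3% lower, so a call alone says little here and the sizes carry the comparison. The median difference of the 10 members was 3.84, and that of all genes tested was -0.04.

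Aqp5 encodes the water channel of the type I cell's apical membrane. In control AECII it ranged from 12.33 to 13.33 with a median of 13.09, against 4.17 to 6.91 with a median of 5.12 in control PASMC. The ranges did not touch, and every AECII array exceeded every PASMC array. The means were 12.98 ± 0.362 and 5.28 ± 0.818 (SD, n = 8 each), a difference of 7.70 (standard error 0.34, limma, Benjamini-Hochberg adjusted p = 9.9e-24). A second Aqp5 probe gave 7.50.

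Clic5 belongs to the chloride intracellular channel family and binds the actin cortex. It ranged from 9.38 to 11.02 (median 10.57) in control AECII, against 1.92 to 4.44 (median 2.97) in control PASMC, where its median was close to that of all probes. The difference was 7.28 (standard error 0.31, limma adjusted p = 1.87e-24, n = 8 each). Hopx, a small homeodomain protein that binds no DNA and works with other transcription factors, ranged from 9.30 to 11.06 (median 10.45) in control AECII, against 1.99 to 4.84 (median 3.40) in control PASMC. Its difference was 7.23 (standard error 0.36, limma adjusted p = 3.98e-22). The PASMC values of both genes lie at the low end of the scale, so the differences are not exact ratios.

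Ager encodes RAGE, the receptor for advanced glycation end products, which type I cells carry on their basal side. It ranged from 8.12 to 10.27 (median 9.63) in control AECII, against 2.49 to 5.03 (median 3.43) in control PASMC, a difference of 6.02 (standard error 0.39, limma adjusted p = 6.22e-18). Akap5 anchors protein kinase A and other signalling enzymes at the membrane. It ranged from 9.89 to 11.08 (median 10.74) in control AECII, against 2.24 to 8.26 (median 4.43) in control PASMC, a difference of 5.97 (standard error 0.68, limma adjusted p = 1.91e-10). The groups of neither gene overlapped, but Akap5 spread over 6 log2 units among control PASMC arrays, the widest spread of any member. Emp2, a small protein that spans the cell membrane several times, was bright in both cell types: 12.25 to 13.33 (median 13.12) in control AECII, against 10.88 to 11.54 (median 11.37) in control PASMC. It was 1.71 higher in AECII (standard error 0.14, limma adjusted p = 8.01e-15).

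Pdpn and Vegfa went the other way. Pdpn, or podoplanin, a mucin-type glycoprotein long used to stain type I cells, was among the brightest members in both cell types. It ranged from 12.52 to 13.26 (median 13.03) in control AECII, against 13.47 to 14.35 (median 13.98) in control PASMC, with no overlap and a difference of -0.98 (standard error 0.13, limma adjusted p = 1.34e-08). Its second, dimmer probe gave -1.38. Vegfa, the growth factor through which the epithelium supports alveolar capillaries, ranged from 10.30 to 10.85 (median 10.46) in control AECII, against 11.38 to 12.47 (median 11.83) in control PASMC. The difference was -1.37 (standard error 0.15, limma adjusted p = 8.07e-11), and 2 further probes gave -1.45 and -1.10.

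Cav1, the scaffold protein of caveolae, ranged from 5.44 to 6.93 (median 6.34) in control AECII, against 4.38 to 6.41 (median 5.68) in control PASMC. The groups overlapped and the difference of 0.63 (standard error 0.31) missed the threshold, with a limma adjusted p of 0.0791. It passed in some refits: the difference was 0.86 (adjusted p = 0.0431) without the PASMC arrays of Sftpc above 6, 0.59 (0.0497) with array weights, and 0.73, 0.75 and 0.72 (0.0456, 0.0392 and 0.0493) without control PASMC replicate 2, control AECII replicate 2 or control PASMC replicate 8. Rtkn2, a gene enriched in type I cells, was dim in both: 3.41 to 5.52 (median 4.34) in control AECII, against 3.65 to 5.14 (median 4.20) in control PASMC. Its difference was 0.07 (standard error 0.24, 95% interval -0.42 to 0.55, limma adjusted p = 0.83).

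**Figure D1:**
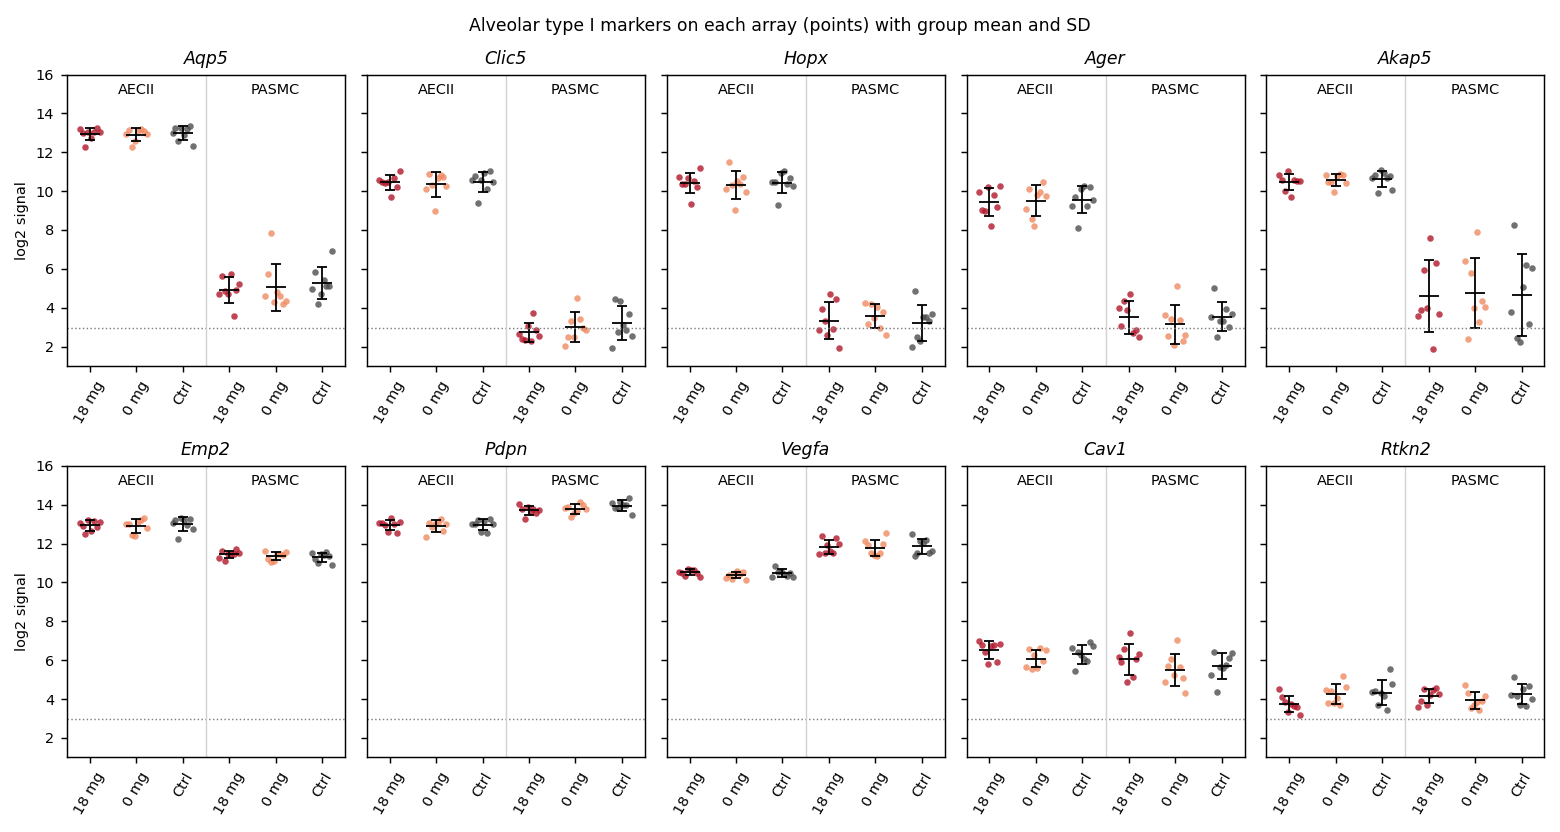
Log2 signal (vertical axis) of each member on every array (points), by cell type and condition (horizontal axis), with the group mean and SD (bars), and the array median of 2.98 as a dotted line. Aqp5, Clic5, Hopx, Ager and Akap5 sit high in AECII and low in PASMC, Pdpn and Vegfa are higher in PASMC, and Akap5 spreads from 1.85 to 8.26 among PASMC arrays.

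The 8 calls recurred in cells given extract. With 18 mg extract in both cell types 8 of 10 members were again called, 6 higher and 2 lower, where 58.3% of all genes tested were called (28% higher, 30.3% lower). With 0 mg extract 8 of 10 were called, again 6 higher and 2 lower, where 58.7% of all genes were called (27.9% higher, 30.9% lower). Aqp5 was 8.03, 7.86 and 7.70 higher in AECII with 18 mg extract, 0 mg extract and in controls, and Pdpn differed by -0.75, -0.87 and -0.98. The groups of Pdpn overlapped at 18 mg, where AECII reached 13.34 and the lowest PASMC array was 13.24. How many of all genes tested had groups without overlap was not counted, so lack of overlap sets no member apart. Within each cell type the order of the 3 conditions rested on differences that did not pass the test. Cav1 at 0 mg passed when PASMC replicate 5 of that condition was left out (0.81, adjusted p = 0.0176), against 0.59 (0.0999) with all arrays.

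**Figure D2:**
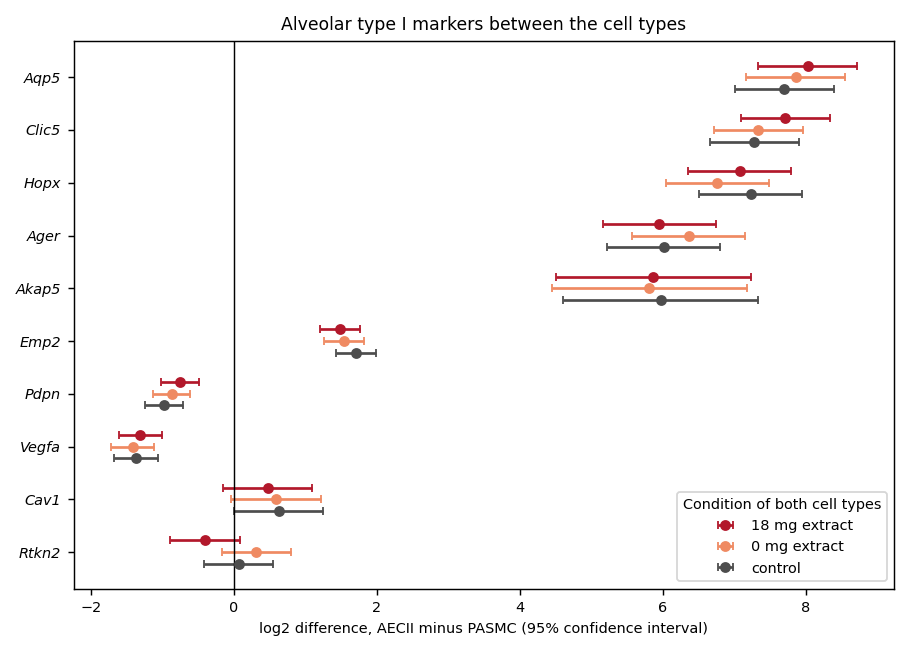
Log2 difference of each member, AECII minus PASMC (horizontal axis), with its 95% confidence interval, in cells given 18 mg extract, 0 mg extract and in controls (n = 8 arrays per group). The intervals of Cav1 and Rtkn2 reach or come close to 0, those of the other 8 members do not, and the intervals of the 3 conditions overlap for every member.

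Genes related to the members by family or pathway were split between the cell types. Genes enter a test when their mean signal is above 2.73, and a gene that reaches it only through the cell type where it is high had to differ, so the counts cover genes that reach it within both cell types. Over all 14775 genes tested in control cells, 27.9% were called higher in AECII and 31.3% lower, the share to set beside each list here and below. It was not computed for only those genes that reach the level within both cell types. Of 20 further type I genes 15 reached the level within both cell types, and in control cells 11 of them were higher in AECII and 3 lower (median 3.08). Among the widest differences were those of the integrin Itgb6 (7.37) and Lmo7 (6.77). Cyp2b10 (6.31) and Gramd2 (6.18) reached the level in AECII alone, with means of 2.69 and 2.59 in control PASMC, as did Col4a3 and Spock2. Lower in AECII were Igfbp2 (-4.16), Sema3a (-4.06) and the protease inhibitor Timp3 (-0.72). Igfbp2 marks mature type I cells in mouse lung, and it lay between 2.16 and 4.34 in control AECII, against 5.67 to 10.02 in control PASMC. Of 11 tested genes of the transitional state between type II and type I cells, 9 were higher in AECII, among them the keratins Krt7 (9.0), Krt8 (8.40) and Krt18 (7.38), and 1 was lower, the cell-cycle inhibitor Cdkn1a (-1.27). Itgb6 belongs to both lists. The comparison is with muscle cells, so this count does not show that AECII were in the transitional state.

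Of 6 aquaporins tested within both cell types, Aqp5 was called higher in AECII and 3 were called lower, with Aqp1, the water channel of capillary endothelium, at -2.18. In the family of Clic5, Clic3 (6.61) was also higher, as was Clic6 (5.84), which reached the tested level in AECII alone, and Clic1 (0.11) and Clic4 (-0.09) did not pass. Of the 4 proteins of the Emp2 family, Emp2 was higher and Emp1 (-0.75), Emp3 (-0.71) and Pmp22 (-0.67) lower. Among 9 caveola genes 3 were higher, with Cav2, the partner of caveolin-1, at 1.65, and 4 lower, with the muscle caveolin Cav3 at -2.54 and the coat protein gene Cavin2 at -1.83.

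The ligands of Ager were mostly on the other side: of 3 tested within both cell types, S100a4 (-1.89) and S100a8 (-1.63) were lower in AECII and Hmgb1 (0.96) higher, and S100b (-5.70), also lower, reached the tested level in PASMC alone. Of 10 VEGF ligands and receptors 9 were lower in AECII, Vegfa among them, with the placental growth factor gene Pgf (-3.14), Vegfd (-2.59) and Vegfc (-2.11) showing the widest gaps. The linker Ezr, which ties podoplanin to actin, was 3.79 higher in AECII and Rdx 0.68 higher, while the hyaluronan receptor Cd44 (-0.74) and Lgals8 (-0.45) were lower. Of 12 genes of the YAP and TEAD pathway 3 were higher, with Tead4 at 2.85, and 6 lower, with Ankrd1 at -1.64 and Tead2 at -1.27.

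The second comparison asks whether the vapour extracts moved the type I markers. No member passed in either cell type: 0 of 10 were called with 18 mg extract in AECII, where 0% of 14477 genes were called, 0 of 10 with 0 mg extract (also 0%) and 0 of 10 between the extracts (also 0%). At an unadjusted p under 0.05, 341 and 447 genes passed in AECII for 18 mg against control and against 0 mg, and 480 for 0 mg against control. In PASMC 0 of 10 members were called with 18 mg extract, where 0.0275% of 14545 genes were called (4 genes, all lower; 589 genes at an unadjusted p under 0.05), with 0 mg extract (0%; 402 genes at an unadjusted p under 0.05) and between the extracts (0%; 282 genes).

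In AECII the changes were small beside their error. With 18 mg extract they ran from -0.58 to 0.22 (median -0.03) and with 0 mg extract from -0.23 to -0.05 (median -0.09), on standard errors of 0.09 to 0.35. All 10 changes with 0 mg extract were below 0, but all are set against the same control arrays and 6 of the 10 members followed each other from array to array, so these are not 10 separate observations. The intervals show which changes the fit could not exclude. The fit treats arrays as independent, although arrays of different conditions may share a mouse, and the intervals take no account of that. For Aqp5 with 18 mg extract the 95% interval was -0.37 to 0.30, and for Pdpn -0.31 to 0.26. For Vegfa it was -0.15 to 0.22, and for Ager, the least precise of the members in AECII, it was -0.83 to 0.63.

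Rtkn2 was the only member with an unadjusted limma p under 0.05, in AECII with 18 mg extract. In AECII it ranged from 3.20 to 4.50 (median 3.71) with 18 mg extract and from 3.69 to 5.20 (median 4.23) with 0 mg extract, against 3.41 to 5.52 (median 4.34) in controls. With 18 mg extract 7 of 8 arrays lay below the control mean, but the groups overlapped. The difference from control was -0.58 (standard error 0.26, limma adjusted p = 1), at a level in the lower part of the scale. Cav1 in AECII ranged from 5.81 to 6.96 (median 6.77) with 18 mg extract and from 5.52 to 6.60 (median 6.10) with 0 mg extract, against 5.44 to 6.93 (median 6.34) in controls. Its difference between the extracts was 0.45 (standard error 0.22, limma adjusted p = 1), with 0.22 for 18 mg and -0.23 for 0 mg against control.

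In PASMC the widest changes with 18 mg extract were those of Clic5 (-0.47, standard error 0.35) and Cav1 (0.38, standard error 0.37). Pdpn had the lowest unadjusted p of the members there. It ranged from 13.24 to 14.02 (median 13.74) with 18 mg extract and from 13.35 to 14.13 (median 13.80) with 0 mg extract, against 13.47 to 14.35 (median 13.98) in controls. With 18 mg extract 7 of 8 arrays lay below the control mean, a difference of -0.25 (standard error 0.13, limma adjusted p = 1). Akap5 was measured least precisely, with a 95% interval of -1.95 to 1.85 for 18 mg extract, so changes within those bounds are not excluded.

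**Figure D3:**
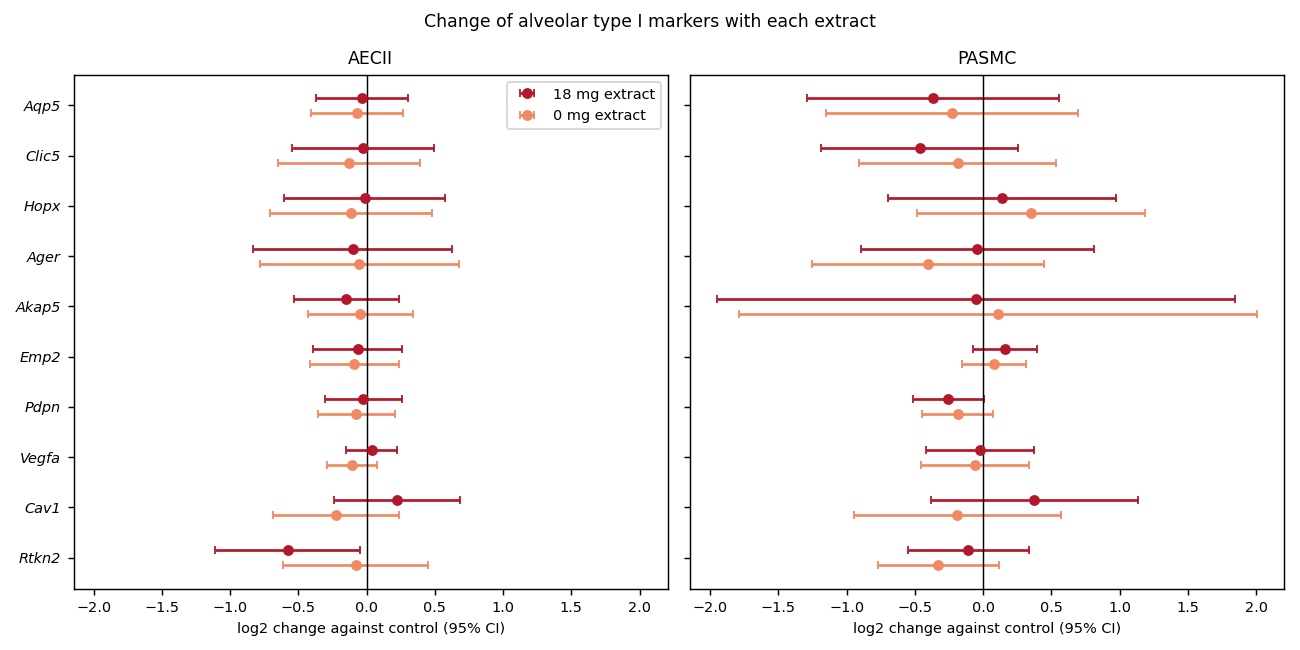
Log2 change of each member with 18 mg or 0 mg extract against control (horizontal axis) with its 95% confidence interval, in AECII (left) and PASMC (right). No change passed the adjusted test, and the intervals are widest for Akap5 in PASMC.

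The response to extract was also compared between the cell types. For 18 mg extract the difference of responses, AECII minus PASMC, ran from -0.47 (Rtkn2, standard error 0.34) to 0.44 (Clic5, standard error 0.44), and for 0 mg from -0.47 (Hopx) to 0.35 (Ager). None of the 10 was called in either case, as was the case for 0% of all genes (382 and 393 genes at an unadjusted p under 0.05). No gene of the related families and pathways passed in any comparison of extract with control.

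Although the extracts moved no marker past the threshold, the markers varied together between AECII arrays. Taken as deviations from the group mean over the 24 AECII arrays, the 6 members that were higher in AECII correlated at 0.48 to 0.90 with each other (15 pairs, median 0.75). The highest was Clic5 with Hopx (0.90), then Ager with Emp2 (0.88) and Emp2 with Akap5 (0.87). The other 4 did not join them: their correlations with the 6 ran from -0.40 to 0.36. Pdpn and Cav1 correlated with each other at 0.61. Arrays of different conditions may share a mouse, so these values describe these arrays and carry no p.

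Within 1 condition the 8 arrays can be tested. All 15 pairs of the 6 were positive in each AECII condition, with a median Pearson correlation of 0.73 with 18 mg extract, 0.77 with 0 mg extract and 0.88 in controls. By exact permutation, adjusted over 135 relations, 2, 2 and 5 of them passed. Neither the positive nor the passing pairs were counted over all genes, so these counts do not set the members apart. In controls Hopx with Ager gave r = 0.95 (exact permutation p = 0.00184, adjusted p = 0.0354, 0.76 without the 2 arrays farthest from the median of Hopx) and a Spearman rho of 0.88 (exact permutation p = 0.00724, adjusted p = 0.0978). With 18 mg extract Clic5 with Hopx gave r = 0.96 (exact permutation p = 0.00122, adjusted p = 0.0279, 0.67 without 2 arrays), and with 0 mg extract 0.89 (exact permutation p = 0.000893, adjusted p = 0.0279, 0.75 without 2 arrays). By Spearman's rho no pair passed after adjustment, and in PASMC none passed by either measure.

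**Figure D4:**
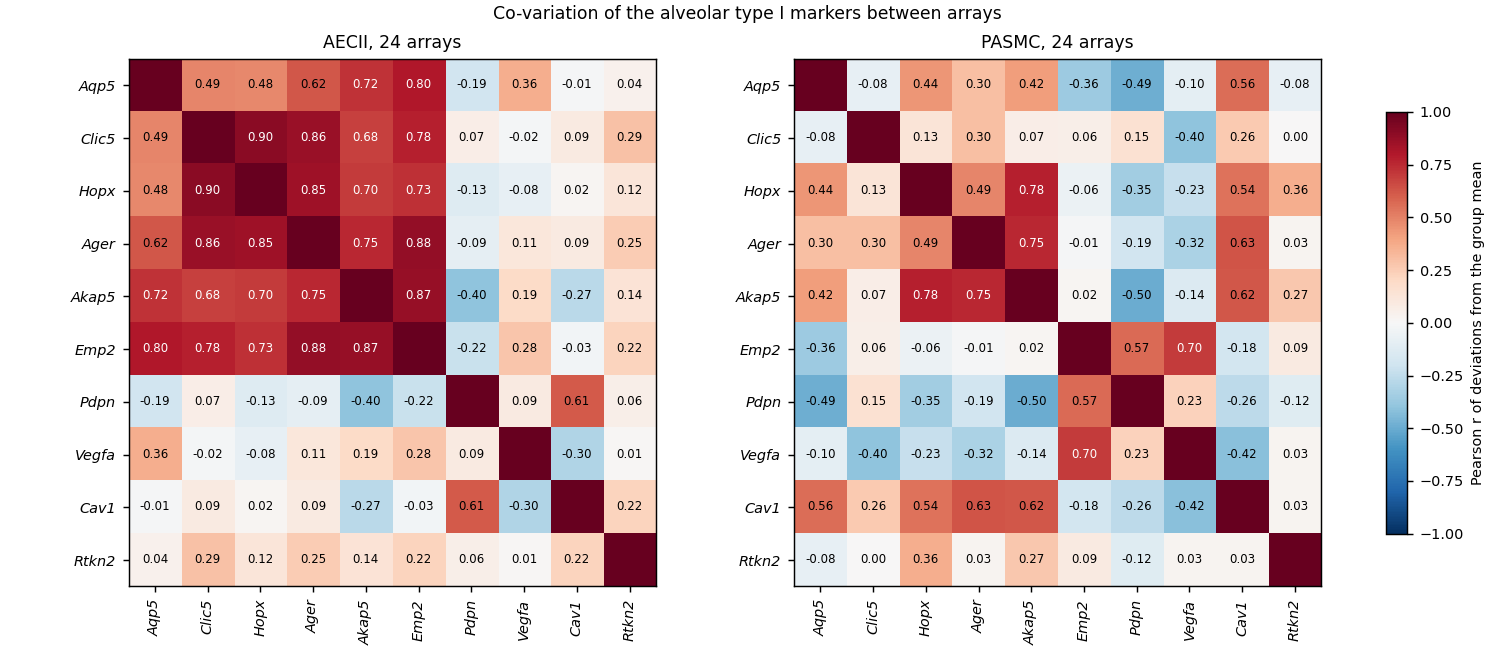
Pearson correlation of deviations from the group mean between each pair of members (colour and printed value) over 24 AECII arrays (left) and 24 PASMC arrays (right). A block of 6 members correlates at 0.48 to 0.90 in AECII, and in PASMC the same pairs run from -0.36 to 0.78.

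One AECII array in each condition carried much of this. Hopx was lowest in replicate 5 with 18 mg extract (9.33), replicate 4 with 0 mg extract (9.02) and replicate 3 of the controls (9.30). In the same arrays Clic5 was 9.71, 8.97 and 9.38 and Ager was 8.23, 8.20 and 8.12, each the lowest of its group. Akap5 was also lowest there, and Emp2 in 2 of the 3 (not with 18 mg extract). Without these 3 arrays, chosen after their values were seen, the 15 correlations ran from 0.24 to 0.80 (median 0.57), and all 15 stayed positive. In these arrays Sftpc was 13.99, 13.95 and 13.80, the lowest of each group, and the fibroblast receptor gene Pdgfra was 9.91, 9.81 and 9.64, the highest or second highest. Over the 24 arrays the mean of 4 fibroblast markers correlated with Hopx at -0.64 and with Akap5 at -0.74. Their part in the result was not tested.

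Aqp5 was lowest in other arrays, replicate 3 with 18 mg extract (12.28), replicate 3 with 0 mg extract (12.28) and replicate 8 of the controls (12.33). The macrophage genes Marco (8.97, 9.46 and 9.24) and Chil3 (10.46, 10.72 and 10.63) were the highest of their groups there. The other macrophage markers followed in part. Lyz2 and Cd68 were highest there with 18 mg extract and in controls, but not with 0 mg extract. Ptprc was highest there with 0 mg extract only, and Cd68 and Ptprc lay close to the array median. Acta2 was high as well (12.81, 12.67 and 12.74). In 1 other array of each group Acta2 was 12.83, 12.67 and 12.75. Aqp5 was 13.03, 13.17 and 12.89 there, against group means of 12.94, 12.91 and 12.98. Over the 24 AECII arrays Aqp5 correlated at -0.61 with the fibroblast markers, -0.56 with the macrophage markers, -0.51 with the blood endothelial markers and -0.46 with the smooth muscle markers, and their part in its level was not tested. Pdpn followed the mean of 4 mesothelial markers at 0.71 and of the fibroblast markers at 0.63, and Cav1 followed the mesothelial markers at 0.68.

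The genes most like each member over the 24 AECII arrays, out of 14477, were shared between some members only. Hopx and Clic5 were followed most closely by Krtap17-1 (0.95 and 0.92) and Clic3 (0.93 and 0.92), and Ager by Clic3 (0.94) and Tmem37 (0.93). Emp2 was followed by Tmem37 and Sh3bgr (0.91 each), Akap5 by Pbxip1 and Gramd2 (0.91 each), and Aqp5 by the sodium channel subunit Scnn1a (0.91) and Acaa1a (0.88). Pdpn was followed by Cobll1 (0.90) and Gmfb (0.87), and Cav1 by the lysyl oxidase Loxl2 (0.84) and the muscle gene Smtn (0.82). The closest genes to Rtkn2 (Vps33a, 0.74, and Lamb2, 0.67) and Vegfa (Rhox5, 0.77, and Gm9732, 0.76) followed less closely.

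In PASMC the marker that varied most was Akap5. It ranged from 1.85 to 7.60 (median 3.94) with 18 mg extract and from 2.39 to 7.90 (median 4.18) with 0 mg extract, against 2.24 to 8.26 (median 4.43) in controls. The highest array was replicate 5 with 18 mg extract, replicate 5 with 0 mg extract and replicate 2 of the controls, which were also the arrays highest in the keratin Krt19 (9.92, 9.90 and 9.96) and in Ager (4.73, 5.14 and 5.03). Igfbp2 was 9.81, 9.89 and 10.02 there, above all other PASMC arrays, whereas Sftpc was 2.00, 2.07 and 1.72, the lowest of each group. Over 24 PASMC arrays Akap5 correlated with Krt8 at 0.89, Krt19 at 0.82, Hopx at 0.78 and the smooth muscle markers at 0.77, and with the fibroblast markers at -0.85. Without the array highest in Akap5 of each condition, the values for Krt8, Krt19 and Hopx were 0.83, 0.70 and 0.69. Those for Ager and Cav1 were 0.52 and 0.35, against 0.75 and 0.62 over all 24 arrays, and that for Clic5 was -0.41, against 0.07. Emp2 correlated with Akap5 at 0.02 over the 24 arrays. The part of other cells in this was not tested.

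**Figure D5:**
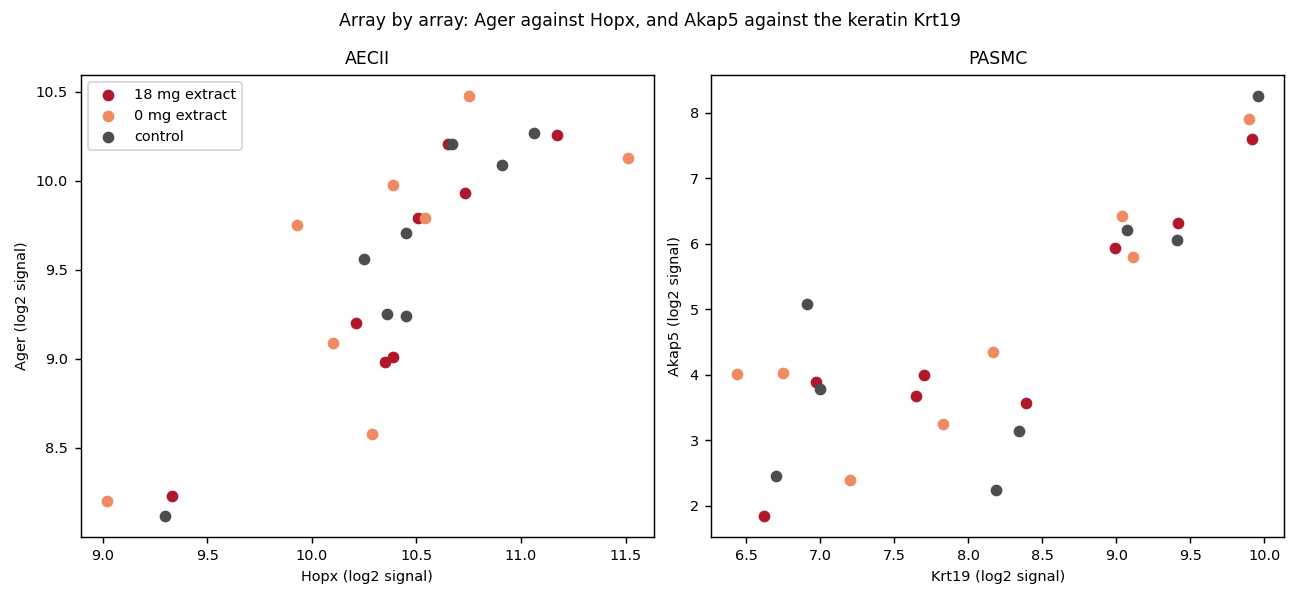
Log2 signal array by array: Ager (vertical) against Hopx (horizontal) in AECII at left, and Akap5 (vertical) against the keratin Krt19 (horizontal) in PASMC at right, with conditions in colour. In AECII 1 array of each condition lies at the low end, with Hopx at 9.33, 9.02 and 9.30, and in PASMC 1 array of each condition lies at the top, with Akap5 at 7.60, 7.90 and 8.26.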

How the data were processed

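Per the labels, mouse AECII and PASMC RNA was hybridised to single-colour Agilent arrays, and limma is named, with no version, in the submitters' processing notes. The deposited values are log2 signals with nearly equal distributions on all 48 arrays (median 2.98, upper quartile 5.78, highest 15.89), which is what quantile normalisation gives. Background correction is not given in the sources used here. Of 62976 features 31465 had a gene name, updated through RefSeq accessions, giving 20738 genes. The 28 missing values touched no member. Each gene was taken from its probe with the highest mean over all arrays; the members have 16 probes. Arrays of a group correlated at 0.978 to 0.986 in AECII and 0.953 to 0.986 in PASMC.

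Genes with a mean above 2.73, the 30th percentile of named features, were fitted with limma 3.58.1 in R 4.3.3 (lmFit, eBayes, 1 coefficient per group, 24 or 48 arrays), with Benjamini-Hochberg adjustment over the 14477 genes tested in AECII, 14545 in PASMC or 14775 between cell types. Calls are at an adjusted p under 0.05, two-sided. All 10 members are named. From the other lists, genes are named when among the 4 largest called changes or in a member's family, and likeness names the 2 genes with the highest correlation. Marker genes shown beside the members (Igfbp2, Pdgfra, Dcn, Col1a1, Tcf21, Acta2, Scgb1a1, Scgb3a2, Cyp2f2, Msln, Myh11, Sftpc, Slc34a2, Etv5, Lamp3, Marco, Chil3, Lyz2, Cd68, Ptprc, Krt19, Krt8) were chosen after their values were seen. Members and lists were chosen with earlier results of these data known. The number of arrays, 8 a group, limits the precision. The fit was tested on simulated data with known changes of 0.5 or 1, 100 of each. For 18 mg extract against control, 46 changes of 0.5 were recovered in AECII and 22 in PASMC. Of the changes of 1, 69 were recovered in each cell type, with 10 false calls in AECII and 4 in PASMC. Between control AECII and control PASMC 40 and 83 were recovered, with 4 false calls. Changes of 0.5 were thus often missed in the simulated data. Alternatives were a replicate block, other filters, median centring, fits to other sets of arrays, the mean of all probes, trend and robust fitting, array weights, leaving out each array in turn, and leaving out PASMC arrays of Sftpc above 6.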

Additional observations from a re-analysis of the deposited data

Results flagged for a closer look

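In 60 sets of 8 arrays, 1 per member and group, 4 held an array far from the others by Dixon's test, where chance gives about 1 in 20. Aqp5 in PASMC with 0 mg extract was 7.84 in replicate 3, and the next highest array was 5.72. Scgb1a1, the club cell gene, was 11.20 and Sftpc 10.26 in that array. High Sftpc did not always come with high Aqp5 in PASMC. Replicate 1 with 0 mg extract had Sftpc at 11.82 and Aqp5 at 4.59, and control replicate 8 had 11.28 and 6.91. The part of other cells was not tested. Aqp5 in PASMC with 18 mg extract was 3.56 in replicate 6, with the next lowest at 4.70. Clic5 in AECII with 0 mg extract was 8.97 in replicate 4, with the next lowest at 10.11. Hopx in control AECII was 9.30 in replicate 3, with the next lowest at 10.25. The last 2 are arrays described above as low in several members. None of the 4 flagged arrays was left out of the tests, and leaving out any one of them changed no call of a member.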

How the results depend on the processing

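The number of members called between cell types was 8 in the main analysis and 8 or 9 under every alternative run, and no member was called for any extract comparison or difference of responses under any of them. Between cell types, Cav1 and Rtkn2 were the members that changed their call or sign. Of the uncalled values, 42 of 675 for the extract comparisons within a cell type changed sign (all 10 members, main values up to 0.23 in size), as did 15 of 218 for the differences of responses (7 members, up to 0.16). Cav1 passed with array weights in controls (0.59), with 0 mg extract (0.63) and with 18 mg extract (0.64), without the PASMC arrays of Sftpc above 6 in controls (0.86), and at the highest of the fits leaving out 1 array each in controls (0.75; lowest 0.44) and with 0 mg extract (0.81; lowest 0.42). Rtkn2 in controls, 0.07 and not called, turned to -0.025 without the PASMC arrays of Sftpc above 6, and ran from -0.10 to 0.20 over the fits leaving out 1 array each. The cause was not tested. The median correlation of the 15 pairs was 0.57 without the array lowest in Hopx of each condition, against 0.75 with all arrays, an alternative chosen after seeing the data. Replicate numbers do not pair the arrays: same-numbered arrays correlated at a median of -0.15 to 0.14. The best match of an array in another condition bore its own number for at most 3 of 8 arrays. The replicate block rests on these numbers, so it says nothing about pairing by mouse. With the replicate block, 8 of 10 members were called between cell types in each condition and 0 for each extract comparison, and 8842, 8802 and 8753 genes in all were called between cell types in controls, with 0 mg and with 18 mg extract. The 4 genes called in PASMC with 18 mg extract were 0 with the replicate block and 0 without the PASMC arrays of Sftpc above 6. Values near the array median, as in Clic5 and Hopx in PASMC, have no detection call, and differences against them may understate the true ones.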
